A study of Mus musculus with 6 samples.

Results

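The genes that encode the mTOR complexes and their regulators were examined in the EDL (extensor digitorum longus), a muscle of the lower leg made mostly of fast-twitch fibres, of mice that lack Akt1 and Akt2 in skeletal muscle. The members were 10 genes chosen by name (Mtor, Rptor, Rictor, Tsc1, Tsc2, Rheb, Akt1s1, Deptor, Rps6kb1 and Eif4ebp1), and all 10 were found among the 24411 genes of the table and passed the filter on low counts. RNA was sequenced from 3 mAktDKO mice (Mlc1f-Cre:Akt1/2-floxed) and 3 control mice (Akt1/2-floxed), all of the C57BL/6J strain and 50 weeks old. The floxed alleles of both Akt genes are thus shared by the groups, and Cre, knocked in downstream of the promoter of the myosin light-chain gene Mlc1f, is carried by the mAktDKO mice alone. No mice with Cre and without floxed alleles were among these samples, so Cre itself and the deletion cannot be told apart. The recombinase acts in muscle fibres, whereas the RNA came from the whole muscle with its vessels, connective tissue and nerves.

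The mTOR kinase works in a pair of complexes. In mTORC1, it is joined by raptor (encoded by Rptor), and in mTORC2 by rictor (Rictor). Akt is placed on both sides of mTOR. It is phosphorylated by mTORC2, and it relieves the brakes on mTORC1 by phosphorylating tuberin (Tsc2), which holds the small GTPase Rheb inactive, and PRAS40 (Akt1s1), which binds raptor. Active mTORC1 promotes protein synthesis through S6 kinase (Rps6kb1) and the translational repressor 4E-BP (Eif4ebp1), and this route is a main driver of muscle growth. These are controls on proteins by phosphorylation, and the values below are of RNA.

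Control mouse 2 stood apart from the other libraries. By chi-square per degree of freedom over genes, it differed from the other control mice by 25.4 to 26.2, whereas these differed from each other by 10.2, and from the mAktDKO mice by 48.2 to 65.8, against 16.3 to 26.9 for the other control mice. Values without it are given beside a number of the results. Total counts were between 13738795 and 15445523 per mouse, and at this depth the floor of 3 counts corresponds to 0.180 to 0.227 CPM (the count relative to the library size, which was scaled by the TMM method). The members had between 179 and 3002 counts in a mouse. Akt2 was at 51.3, 49.1 and 52.7 CPM in the mAktDKO mice and at 172, 133 and 142 CPM in the control mice. It was the targeted gene past the threshold (log2 fold change -1.55, standard error 0.11, adjusted p = 0.000923 with edgeR's quasi-likelihood test), a call that was lost without any one mAktDKO mouse (adjusted p from 0.0165 to 0.0208 with edgeR). Akt1 was at 58.9, 56.7 and 51.3 CPM against 66.4, 65.5 and 66.5 CPM (log2 fold change -0.25, standard error 0.080, adjusted p = 0.114 with the same edgeR test, and -0.11 when scaled by library totals), and its counts are of the whole gene and not of the targeted part. Summed markers of fast fibres were high in every mouse, at 105433 to 115980 CPM in the mAktDKO mice and 118421 to 128946 CPM in the control mice. Those of macrophages and leukocytes were at 17.5 to 18.8 against 7.89 to 13.7 CPM, and those of fibro-adipogenic cells at 15149 to 19648 against 6329 to 15475 CPM, with the lowest value in control mouse 2 (12881 to 15475 CPM in the other control mice). In such bulk samples, a different number of cells of one type and a different amount of RNA per cell cannot be told apart.

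At an adjusted p under 0.01, 0 of the 10 members passed edgeR's quasi-likelihood test, where 0.0233% of the 12892 tested genes did. At an adjusted p under 0.05 Deptor passed alone among them, on the higher side, against 1.18% of all tested genes (0.264% higher and 0.915% lower). It was also the single member that DESeq2's Wald test placed under 0.01 on the same genes, where 2.35% of all genes were (0.652% higher and 1.7% lower). Without adjustment, 8 of the 10 members had a p under 0.05 with edgeR, against 24.5% of all tested genes, 4 of them higher (11.4% of all genes) and 4 lower (13.1%). The groups did not overlap for 7 members, against 31.1% of all genes, with 3 higher in every mAktDKO mouse (14.6% of all genes) and 4 lower (16.6%). The higher ones were Deptor, Rictor and Rps6kb1, and the lower ones Mtor, Rptor, Akt1s1 and Tsc2. When libraries were scaled by their totals instead, 4 members were higher and 0 lower at an unadjusted p under 0.05, against 23% and 5.03% of all genes. Mtor, Rptor, Akt1s1 and Tsc2 were no longer under that limit, with log2 fold changes of -0.16, -0.15, -0.13 and -0.10 where the median of all genes was 0.16. The groups were then apart for 4 higher members, Eif4ebp1 among them, and for 2 lower ones, Rptor and Akt1s1 (26.5% and 6.92% of all genes). Without control mouse 2, 3 members were higher (Deptor, Eif4ebp1 and Rictor) and 1 lower (Rptor) at an unadjusted p under 0.05, against 9.05% and 10.2% of the 13138 genes then tested. The groups were then apart for 4 higher and 4 lower members, against 19.2% and 19.5% of these genes. The median log2 fold change of the 10 members with TMM scaling was -0.062, beside 0.017 for all tested genes. The members thus lay on both sides of 0 and did not share a direction.

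**Figure D1:**
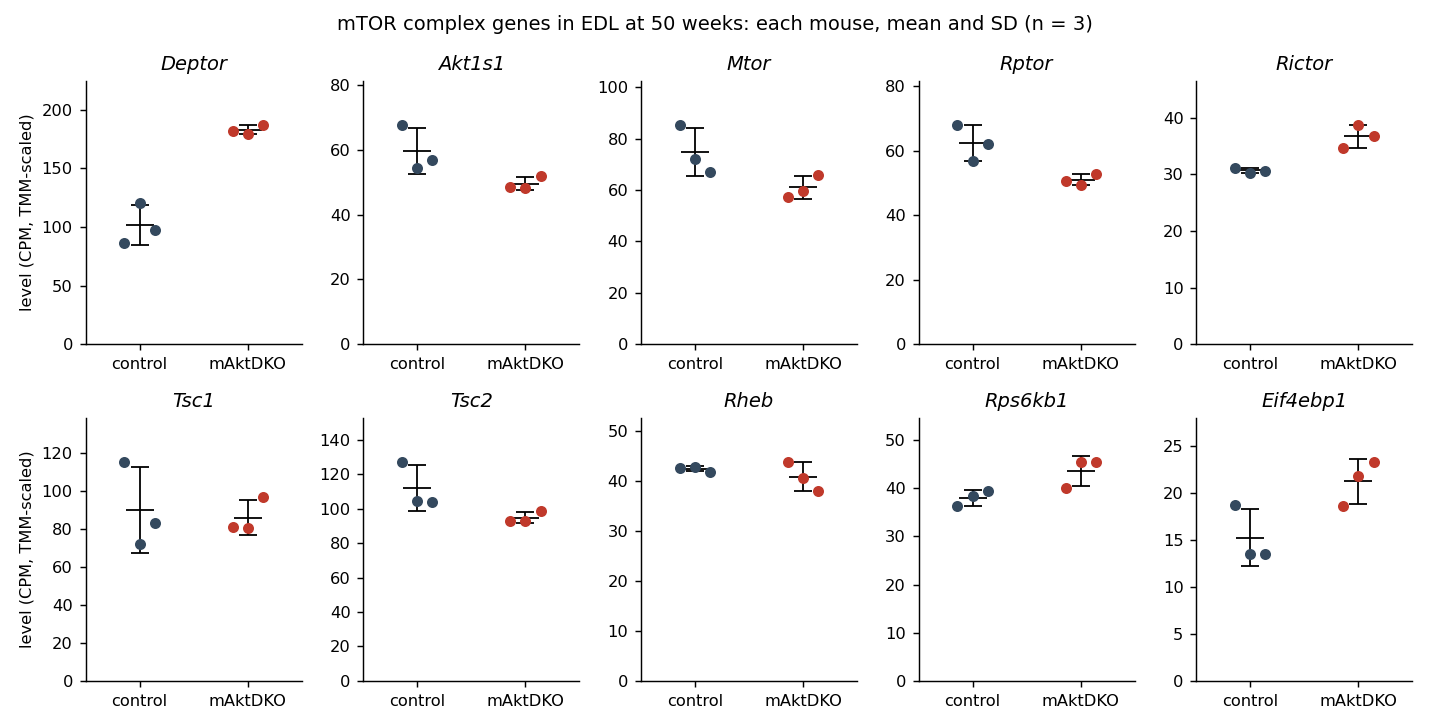
Level of each member in each mouse (CPM, TMM-scaled, axes from 0), with dots for mice and bars for mean and SD, n = 3 in each group. Deptor is at 180 to 187 CPM in the mAktDKO mice and 86.5 to 120 CPM in the control mice, while the dots of Tsc1, Rheb and Eif4ebp1 overlap between the groups.

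Deptor encodes an inhibitor that binds the mTOR kinase in both complexes. The gene lies on chromosome 15 of mm10 (GRCm38), from 55112317 to 55259271 on the plus strand. Its level in mAktDKO mice was 182, 180 and 187 CPM, whereas control mice had 86.5, 120 and 97.8 CPM. Every mAktDKO mouse was therefore well above every control mouse, and the spread was smaller in the mAktDKO group. The means were 183 ± 3.83 CPM (SD, n = 3) and 102 ± 17.2 CPM (SD, n = 3). This is a 1.80-fold higher level (log2 fold change 0.85, standard error 0.12, 95% interval 0.58 to 1.11, adjusted p = 0.0218 with edgeR's quasi-likelihood test). By p it was number 28 of the 12892 genes and number 2 of the 6762 genes with a higher estimate. With DESeq2 on the same genes the adjusted p was 2.13e-08, and it ranged from 1.36e-08 to 0.0306 over the settings of scaling, filter and test. Without one mAktDKO mouse the adjusted p from edgeR was 0.0966, 0.127 and 0.0979 for mice 1, 2 and 3, so that the call at 0.05 was lost, while the log2 fold change stayed between 0.74 and 0.99 without any one of the 6 mice.

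Levels of markers of other cells and fibre types moved with the groups to different degrees. Summed tendon markers were at 83.7, 75.9 and 86.2 CPM in the mAktDKO mice against 38.6, 54.3 and 64.6 CPM in the control mice. Those of satellite cells were at 5.58 CPM or more against 4.99 to 5.17 CPM, and like the tendon and macrophage sums they were higher in every mAktDKO mouse, while the fast-fibre sum was lower in every one. Not all genes of these lists moved with their sum. Of the 8 fast-fibre markers 4 overlapped between the groups, among them Myh4, the most abundant (log2 fold change -0.018, adjusted p = 0.944 with edgeR), while Myh1 was at -0.51 (adjusted p = 0.0539 with edgeR). Of the satellite cell markers, Pax7 overlapped and Myf5 did not. The sums of slow fibres (390 to 855 against 326 to 525 CPM), adipocytes (17.9 to 57.8 against 12.4 to 30.5 CPM), endothelial cells (343 to 410 against 280 to 374 CPM) and mural cells (364 to 408 against 311 to 373 CPM) overlapped, as did that of fibro-adipogenic cells, which is mostly Col1a1. Some genes of these lists were nevertheless higher in every mAktDKO mouse, namely Rgs5 (mural) and, of the fibro-adipogenic genes, Pdgfra (log2 fold change 0.25, adjusted p = 0.148 with edgeR) and Dcn, at 587, 670 and 698 against 372, 468 and 477 CPM (0.57, adjusted p = 0.0539 with edgeR). No marker of these lists was at 0 in a mouse. The part of any of these cells in the level of Deptor or of the other members was not tested.

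Mtor, the kinase itself, lies on chromosome 4 from 148448611 to 148557683. It was at 57.3, 59.7 and 65.9 CPM in the mAktDKO mice and at 85.3, 71.9 and 67.1 CPM in the control mice. The groups did not overlap, but mAktDKO mouse 3 and control mouse 4 were close to each other. The log2 fold change was -0.29 (standard error 0.11, 95% interval -0.53 to -0.055, adjusted p = 0.141 with edgeR). Rptor, the scaffold that brings substrates to mTORC1 (chromosome 11, 119602905 to 119899576), was at 50.8, 49.5 and 53.0 CPM against 68.0, 56.9 and 62.1 CPM. All 3 mAktDKO mice were below the control mice, by -0.29 on the log2 scale (standard error 0.088, 95% interval -0.49 to -0.089, adjusted p = 0.104 with edgeR). Akt1s1, whose product PRAS40 restrains mTORC1 until Akt phosphorylates it (chromosome 7, 44848991 to 44855421), was at 48.7, 48.2 and 51.9 CPM against 67.7, 54.3 and 56.7 CPM. Its log2 fold change was -0.27 (standard error 0.099, 95% interval -0.49 to -0.042, adjusted p = 0.150 with edgeR). For each of these genes, control mouse 2 was the highest of the 6 mice. Without that mouse, the log2 fold changes were -0.19 for Mtor, -0.22 for Rptor and -0.16 for Akt1s1.

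Rictor, the scaffold of mTORC2 (chromosome 15, 6708379 to 6800401), went the other way. It was at 34.6, 38.7 and 36.7 CPM in the mAktDKO mice and at 31.2, 30.3 and 30.7 CPM in the control mice (SD 0.454 CPM, n = 3). Each mAktDKO mouse was above each control mouse, with a log2 fold change of 0.26 (standard error 0.082, 95% interval 0.072 to 0.44, adjusted p = 0.113 with edgeR). It was 0.27 without control mouse 2, and 0.40 when scaled by library totals (adjusted p = 0.0608 with edgeR). None of these estimates passed the threshold, and all 4 kept their sign in each of the 14 alternatives tried.

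The promoters shown are those of the 4 members that were lower in every mAktDKO mouse (Mtor, Rptor, Akt1s1 and Tsc2) and of Rictor and Rps6kb1, which were higher in every one. The sequences run from 250 bases before to 50 bases after the annotated start (RefSeq, GRCm38.p6), and 8 of the 10 members had one in the RefSeq table used, all but Deptor and Eif4ebp1. That of Akt1s1 begins at 44850122, inside the gene as placed above (44848991 to 44855421). Its start thus lies downstream of the first base of the gene, where no promoter was searched. Capitals mark CCGGAAG or its reverse complement CTTCCGG, the letters of an ETS family motif.
Mtor (chr4:148448332-148448631, plus strand): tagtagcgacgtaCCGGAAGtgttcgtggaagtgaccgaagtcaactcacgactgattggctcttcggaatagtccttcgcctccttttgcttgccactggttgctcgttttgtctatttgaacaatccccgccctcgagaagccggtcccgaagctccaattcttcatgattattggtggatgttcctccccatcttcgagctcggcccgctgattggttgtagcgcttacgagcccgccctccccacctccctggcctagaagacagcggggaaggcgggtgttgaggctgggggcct
Rptor (chr11:119602655-119602954, plus strand): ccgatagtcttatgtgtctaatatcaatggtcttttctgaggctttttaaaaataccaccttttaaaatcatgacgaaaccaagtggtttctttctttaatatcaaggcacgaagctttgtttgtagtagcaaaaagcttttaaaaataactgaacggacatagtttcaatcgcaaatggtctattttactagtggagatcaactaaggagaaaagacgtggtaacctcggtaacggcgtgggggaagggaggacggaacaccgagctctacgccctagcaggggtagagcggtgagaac
Akt1s1 (chr7:44850122-44850421, plus strand): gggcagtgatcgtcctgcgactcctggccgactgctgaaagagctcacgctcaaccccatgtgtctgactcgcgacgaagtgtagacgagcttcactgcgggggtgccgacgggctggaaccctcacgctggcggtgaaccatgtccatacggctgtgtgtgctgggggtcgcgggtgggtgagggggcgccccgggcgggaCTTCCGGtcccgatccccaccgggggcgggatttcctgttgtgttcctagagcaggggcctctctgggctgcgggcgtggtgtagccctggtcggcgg
Tsc2 (chr17:24632578-24632877, minus strand): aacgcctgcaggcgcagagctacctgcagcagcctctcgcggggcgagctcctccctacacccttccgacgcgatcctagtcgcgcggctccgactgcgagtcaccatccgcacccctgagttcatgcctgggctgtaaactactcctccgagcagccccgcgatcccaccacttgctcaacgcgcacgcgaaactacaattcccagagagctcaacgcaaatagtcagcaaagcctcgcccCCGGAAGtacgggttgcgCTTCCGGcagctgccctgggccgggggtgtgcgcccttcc
Rictor (chr15:6708131-6708430, plus strand): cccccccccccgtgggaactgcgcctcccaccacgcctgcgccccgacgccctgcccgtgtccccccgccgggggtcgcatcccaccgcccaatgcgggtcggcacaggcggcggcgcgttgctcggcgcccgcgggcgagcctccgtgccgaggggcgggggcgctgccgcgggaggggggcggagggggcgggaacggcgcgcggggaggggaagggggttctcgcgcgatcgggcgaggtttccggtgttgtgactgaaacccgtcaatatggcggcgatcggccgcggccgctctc
Rps6kb1 (chr11:86544758-86545057, minus strand): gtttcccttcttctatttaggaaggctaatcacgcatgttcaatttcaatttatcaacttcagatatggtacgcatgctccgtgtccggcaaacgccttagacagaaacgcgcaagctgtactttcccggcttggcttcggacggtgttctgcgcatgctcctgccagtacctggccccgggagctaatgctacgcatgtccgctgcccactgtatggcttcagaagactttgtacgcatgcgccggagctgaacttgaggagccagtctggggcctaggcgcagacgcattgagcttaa
The ETS letters were found on either strand in 3 of the 8 member promoters (Mtor, Akt1s1 and Tsc2, where they occur at 2 places), not in that of Rptor, Rictor or Rps6kb1, and in 8.86% of all 32851 promoters. Of 8 motifs searched on both strands, FoxO (TGTTTAC), the insulin response element (TGTTTTG) and the cAMP response element (TGACGTCA) were in 0 of the 8, against 3.65%, 6.28% and 1.79% of all promoters. The E-box (CACGTG, 7.15% of all promoters) was in that of Rheb, the YY1 core (AAGATGGC, 2.75%) in that of Tsc1, and the NRF1 core (GCGCATGC, 2.71%) in that of Rps6kb1. The GC box (GGGCGGG, 25.6%) was in those of Mtor, Akt1s1 and Rictor. The NRF1 and YY1 cores were shortened from longer forms after a first search, in which the longer NRF1 form was in no member promoter and the longer YY1 form in that of Tsc1. The motifs were searched after the values of the genes were known, and a match is a description of the letters only.

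The TSC complex and Rheb form the switch upstream of mTORC1. Tsc2 (chromosome 17, 24595816 to 24632630), the GTPase-activating subunit, was at 93.1, 92.8 and 98.5 CPM in the mAktDKO mice and at 127, 105 and 104 CPM in the control mice. The groups did not overlap, and control mouse 2 stood above the rest. The log2 fold change was -0.24 (standard error 0.097, 95% interval -0.46 to -0.021, adjusted p = 0.173 with edgeR), and -0.14 without control mouse 2. Tsc1 (chromosome 2, 28641228 to 28691167), which stabilizes tuberin, was at 81.0, 80.6 and 96.8 CPM against 116, 71.9 and 83.4 CPM. Its control values enclosed those of the mAktDKO mice, and they had the largest spread among the members, with the highest mouse 1.61 times the lowest. The log2 fold change was -0.069 (standard error 0.16, 95% interval -0.44 to 0.30, adjusted p = 0.820 with edgeR), and it turned to 0.15 without control mouse 2 and to 0.069 when libraries were scaled by their totals. Rheb (chromosome 5, 24802823 to 24842624), the GTPase that activates mTORC1, was at 43.9, 40.6 and 38.1 CPM against 42.7, 42.8 and 41.9 CPM. The groups overlapped, with a log2 fold change of -0.055 (standard error 0.083, 95% interval -0.24 to 0.13, adjusted p = 0.711 with edgeR). It was 0.086 when scaled by library totals, -0.052 without control mouse 2, and from -0.11 to -0.022 over the fits without one mouse. A difference in Rheb beyond 0.846- to 1.10-fold lay outside the 95% interval.

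Rps6kb1 and Eif4ebp1 encode substrates through which mTORC1 drives translation, and neither passed the threshold. Rps6kb1, the S6 kinase gene (chromosome 11, 86498871 to 86544805), was at 40.1, 45.6 and 45.4 CPM in the mAktDKO mice and at 36.3, 38.3 and 39.4 CPM in the control mice. The groups were apart by less than 1 CPM at their nearest mice. The log2 fold change was 0.20 (standard error 0.087, 95% interval 0.0054 to 0.40, adjusted p = 0.193 with edgeR). It was 0.17 without control mouse 2, and 0.34 when scaled by library totals (adjusted p = 0.0799 with edgeR). Eif4ebp1, which encodes the repressor that holds the cap-binding protein eIF4E (chromosome 8, 27260329 to 27276674), was the member with the lowest counts and was at 18.6, 21.8 and 23.4 CPM against 18.8, 13.5 and 13.5 CPM. Control mouse 2 reached the level of mAktDKO mouse 1, and the other control mice were below all mAktDKO mice. The log2 fold change was 0.48 (standard error 0.15, 95% interval 0.13 to 0.82, adjusted p = 0.112 with edgeR), and without control mouse 2 it was 0.65 with an adjusted p of 0.0443, the lowest of the fits that left out one mouse (up to 0.327). The related genes had estimates below 0, at -0.036 for Rps6kb2, -0.15 for Eif4ebp2 and -0.40 for Eif4ebp3, and did not pass the threshold either.

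**Figure D2:**
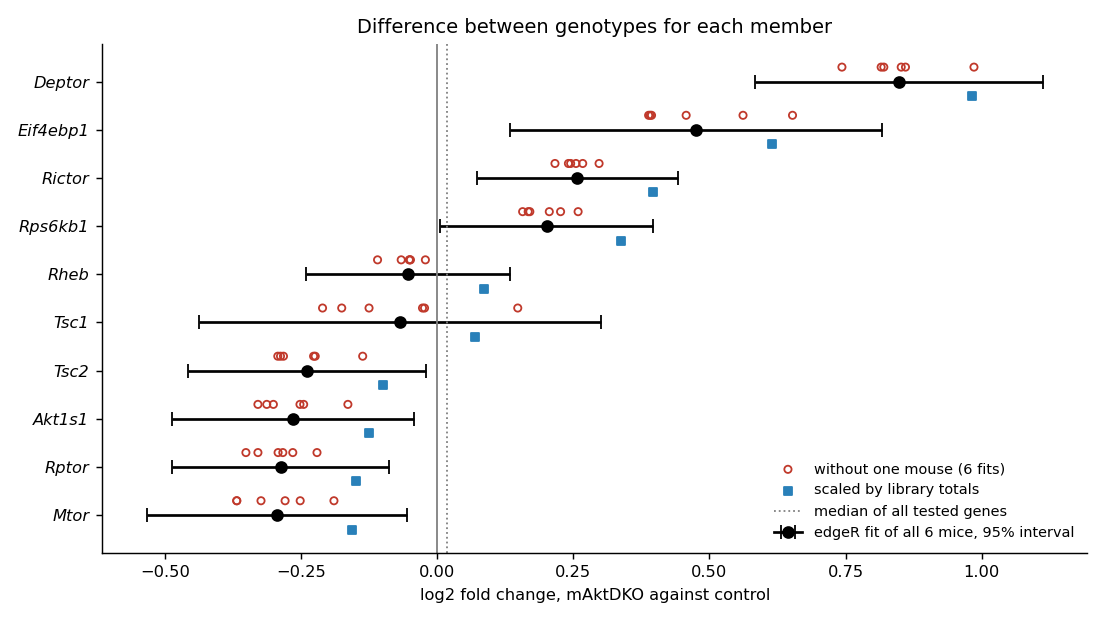
Log2 fold change of each member (mAktDKO against control), with black dots and 95% intervals from edgeR for all 6 mice, open circles for the 6 fits without one mouse and squares for scaling by library totals and a dotted line at the median of all tested genes (0.017). The interval of Deptor runs from 0.58 to 1.11, those of Tsc1 and Rheb cross 0, and their squares lie at 0.069 and 0.086.

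Ratios between genes within a mouse do not depend on the scaling between mice, and 7 were formed from the counts (not per length). The ratio of Rptor to Rictor, the scaffolds of the 2 complexes, was 1.47, 1.28 and 1.44 in the mAktDKO mice and 2.18, 1.88 and 2.02 in the control mice. It was lower in every mAktDKO mouse, by -0.54 on the log2 scale. The ratio of Deptor to Mtor was 3.17, 3.01 and 2.84 in the mAktDKO mice against 1.01, 1.67 and 1.46, higher by 1.15 on the log2 scale (2.22-fold). That of Eif4ebp1 to its target Eif4e was 0.305, 0.353 and 0.352 against 0.302, 0.193 and 0.207, a difference of 0.55 on the log2 scale in which control mouse 2 nearly met mAktDKO mouse 1. Against Eif4ebp2, the related repressor gene with the higher count, Eif4ebp1 was at 0.277, 0.327 and 0.306 in the mAktDKO mice and 0.209, 0.209 and 0.172 in the control mice, higher by 0.63 on the log2 scale. The groups did not overlap for these 4 ratios (exact permutation test, p = 0.1 two-sided, which is the least that 3 mice against 3 allow, and 0.175 adjusted over the 7 ratios). For Rptor to Rictor and Deptor to Mtor, this follows from the single genes and adds nothing to them. Rptor and Mtor were each lower, and Rictor and Deptor each higher, in every mAktDKO mouse. The share of all gene pairs whose ratios are apart was not computed. The groups overlapped for Tsc1 to Tsc2 (0.19 on the log2 scale, exact p = 0.3, and 0.084 to 0.28 without one mouse). The groups also overlapped for Rps6kb1 to Rps6kb2 (0.24, exact p = 0.3, and 0.14 to 0.33 without one mouse) and Akt1s1 to Mtor (0.030, exact p = 0.7). Akt1s1 and Mtor thus kept nearly one ratio in the 6 mice, between 0.756 and 0.850.

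**Figure D3:**
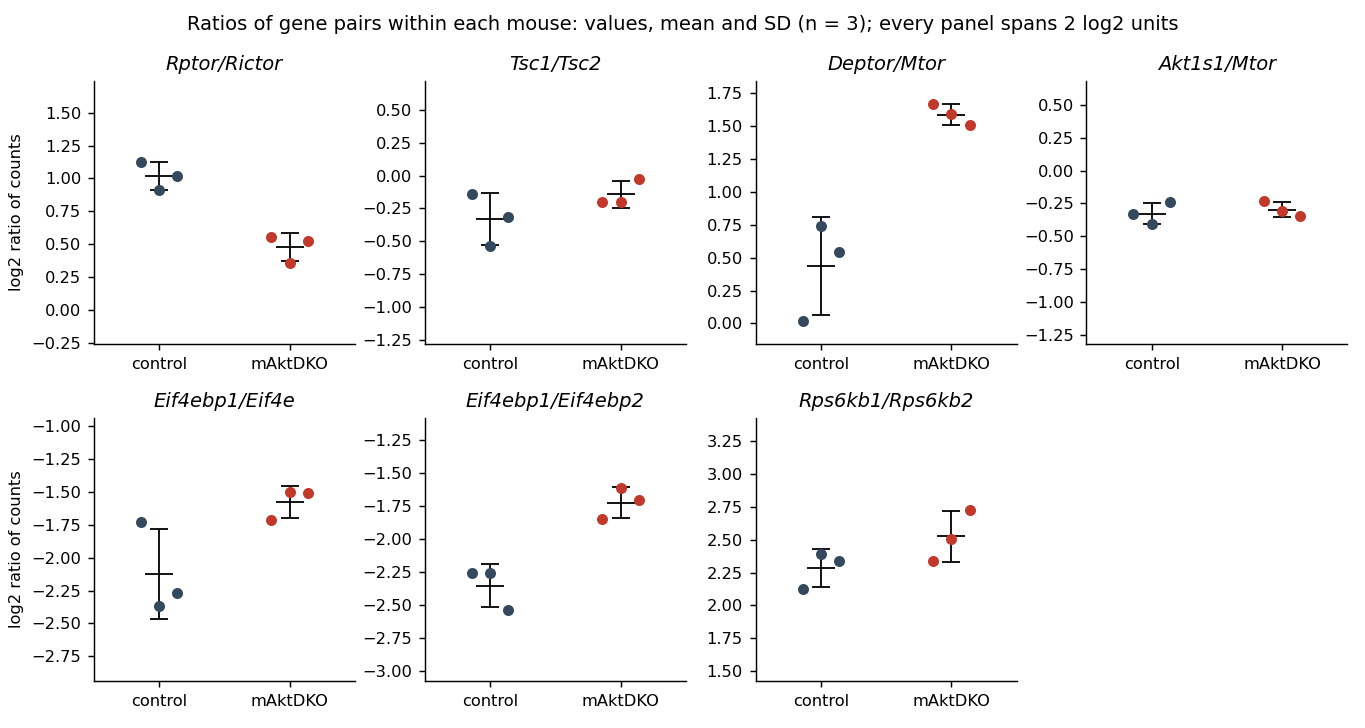
Log2 ratio of the counts of 2 genes within each mouse, with dots for mice and bars for mean and SD, n = 3 in each group, and every panel spanning 2 log2 units. The mean of Rptor/Rictor is 1.02 in control mice and 0.48 in mAktDKO mice, and that of Deptor/Mtor 0.44 and 1.59.

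To compare the members with each other, counts were divided by the length of all annotated exons of a gene and scaled to one common sum in each mouse, that of CPM, over the genes with a length. In the control mice, Akt1s1 had the highest level per length, 86.7 ± 8.80 (SD, n = 3), followed by Tsc2 at 52.0 ± 5.09 and Deptor at 51.3 ± 8.97. Tsc1 (34.1 ± 7.90), Mtor (33.0 ± 3.35) and Eif4ebp1 (31.0 ± 5.50) came next, then Rheb (24.6 ± 0.421), Rptor (20.7 ± 1.67) and Rps6kb1 (19.7 ± 1.34). Rictor was lowest at 8.12 ± 0.197. From Tsc2 to Eif4ebp1, each gene overlapped its neighbour in this order between mice, as did Rptor and Rps6kb1. Akt1s1, Rheb and Rictor were apart from the genes next above and below them. In the mAktDKO mice Deptor was highest, at 102 ± 1.44, above Akt1s1 at 79.9 ± 1.34, and Rictor was again lowest at 10.7 ± 0.850. With the coding length in place of the exon length, Rictor had the lowest mean and Deptor the highest in both groups, but the order between them differed, with the mean of Rheb second in place of seventh in the control mice. On that scale, the control mice overlapped for Deptor (116 to 164) and Rheb (127 to 130).

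The other genes of the pathway, 87 in 9 lists, were all tested, and 0 passed an adjusted p under 0.01 with edgeR (28, or 32.2%, had an unadjusted p under 0.05, against 24.5% of all tested genes, and DESeq2 placed 3 under 0.01, against 2.35% of all genes). Their median log2 fold change was -0.057, and 50 had estimates below 0 and 37 above, beside 6130 and 6762 of all tested genes. Among subunits and assembly factors of the complexes, Mapkap1, a subunit of mTORC2, was at -0.18 (standard error 0.093, -0.10 without control mouse 2 and -0.036 when scaled by library totals). Prr5 was at 0.30 (standard error 0.28), from 0.057 without control mouse 2 to 0.55 without control mouse 4. Telo2, which helps to assemble mTOR and related kinases, was at -0.35 (standard error 0.13, adjusted p = 0.144 with edgeR). With library totals Telo2 was at -0.21. Tbc1d7, the small subunit of the TSC complex, was at -0.48 (standard error 0.16, adjusted p = 0.129 with edgeR, and -0.32 without mAktDKO mouse 2), and all 5 genes of the list of the TSC complex and Rheb had estimates below 0, with a median of -0.24. When libraries were scaled by their totals this median was -0.10. Those of the Rag and Ragulator genes and of the autophagy and lysosome list were then -0.029 and -0.021 (-0.17 and -0.16 with TMM). Every list median, and the estimate of every pathway gene named here by its p, moved up with that scaling. The medians of the complexes (-0.13 with TMM), the amino acid sensors, the stress-induced inhibitors, the S6 kinase arm and the 4E-BP arm then came to lie above 0, at 0.0082, 0.074, 0.060, 0.13 and 0.0039, and the lower and higher counts given for lists are those of TMM scaling. Single mice moved some list medians as well. Without control mouse 2 they were 0.084 for the stress-induced inhibitors, 0.12 for the S6 kinase arm, -0.027 for the autophagy and lysosome list, -0.10 for the Rag and Ragulator genes, -0.14 for the TSC list and -0.074 for the complexes. Without control mouse 3 they were -0.20 for the complexes, -0.10 for the S6 kinase arm, -0.22 for the stress-induced inhibitors and -0.015 for the amino acid sensors, and without control mouse 4 -0.041 for the complexes and -0.11 for the amino acid sensors.

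Rag GTPases and the Ragulator bring mTORC1 to the lysosome when amino acids are present. Of these 10 genes, 6 had lower and 4 higher estimates, with a median of -0.17. Rragd was at 307, 299 and 340 CPM in the mAktDKO mice and at 417, 370 and 423 CPM in the control mice (log2 fold change -0.35, standard error 0.092, adjusted p = 0.0759 with edgeR). Rragc, its paralogue, was at 31.2, 34.8 and 32.4 CPM against 26.3, 27.6 and 28.0 CPM (log2 fold change 0.27, standard error 0.084, adjusted p = 0.112 with edgeR). The groups were apart for both, in opposite directions. Lamtor2 was at -0.36 (standard error 0.10, adjusted p = 0.0913 with edgeR). With library totals, Rragd and Lamtor2 were both at -0.22 and Rragc was at 0.41. Of the 20 genes of amino acid sensors, GATOR and folliculin, 12 had estimates below 0 and 8 above, with a median of -0.065, and 3 in each direction had an unadjusted p under 0.05, near the shares of all tested genes (11.4% higher and 13.1% lower). Kptn had the smallest p (log2 fold change -0.56, standard error 0.17, adjusted p = 0.106 with edgeR), followed by Wdr59 (-0.30, and -0.16 when scaled by library totals).

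Among 6 stress-induced inhibitors, Ddit4, whose product REDD1 lowers mTORC1 activity through the TSC complex, was at 55.1, 67.4 and 75.1 CPM in the mAktDKO mice and at 75.0, 109 and 133 CPM in the control mice. The groups met at one pair of mice, at an estimated log2 difference of -0.68 (standard error 0.19, adjusted p = 0.0908 with edgeR and 0.00647 with DESeq2 on the same genes). Without control mouse 2 the difference was -0.88 with an adjusted p of 0.0226 from edgeR, and the other fits without one mouse gave an adjusted p from 0.136 to 0.280. Sesn3 was at 0.25 (adjusted p = 0.147 with edgeR) and Sesn2 at -0.42 (adjusted p = 0.210 with edgeR). Deptor and Ddit4, both inhibitors of mTORC1, therefore had estimates of opposite sign.

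In the S6 kinase arm, the median of 8 genes was -0.011, and Pdcd4, a translational repressor that S6 kinase marks for degradation, was at 0.27 (standard error 0.11, adjusted p = 0.180 with edgeR, and 0.19 without control mouse 2). Eef2k was at -0.21 (-0.10 without control mouse 2, -0.075 when scaled by library totals), and Rps6, the substrate that names the kinase, at -0.10 (0.036 when scaled by library totals, -0.067 without control mouse 2). In the 4E-BP and cap-binding arm 8 of 11 genes had estimates below 0, of which 3 had an unadjusted p under 0.05, namely Eif4a2 (-0.21), Eif4g1 (-0.25, and -0.17 without control mouse 2) and Larp1 (-0.22, and -0.14 without control mouse 2), against 13.1% of all tested genes. With library totals they were at -0.072, -0.11 and -0.087, and none of them was under that limit. Eif4ebp1 had the highest estimate of the list. Of the 8 genes in the autophagy and lysosome list, Tfeb encodes a master transcription factor of lysosomal genes. It was at 35.6, 32.7 and 35.8 CPM in the mAktDKO mice and at 61.8, 44.4 and 48.6 CPM in the control mice. All mAktDKO mice were below all control mice (log2 fold change -0.57, standard error 0.12, adjusted p = 0.0573 with edgeR and 0.00428 with DESeq2 on the same genes, and -0.42 without control mouse 2). Its relative Tfe3 was at 0.31 (adjusted p = 0.203 with edgeR, and 0.42 without control mouse 2), and Atg101 at -0.30 (-0.19 without control mouse 2, -0.16 when scaled by library totals).

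The last list held 20 genes that mTORC1 is known to induce through ATF4 and SREBP, in serine and amino acid metabolism and in lipid synthesis. Of these, 15 had higher and 5 lower estimates, and their median log2 fold change was 0.30, beside 0.017 for all tested genes. Psat1, an enzyme of serine synthesis, was at 5.77, 6.58 and 6.10 CPM in the mAktDKO mice and at 2.10, 2.92 and 3.40 CPM in the control mice. The groups were well apart (log2 fold change 1.14, standard error 0.20, adjusted p = 0.0466 with edgeR and 0.00284 with DESeq2 on the same genes). The adjusted p from edgeR was 0.116, 0.220 and 0.115 without mAktDKO mice 1, 2 and 3 and 0.0911 without control mouse 3, so that the call at 0.05 was lost in these 4 of 6 fits, with log2 fold changes from 0.96 to 1.29 over the 6. Asns, asparagine synthetase, was at 0.73 (standard error 0.22, adjusted p = 0.106 with edgeR, and 0.57 without control mouse 2), and the cystine transporter gene Slc7a11 at 1.49 (standard error 0.47, adjusted p = 0.108 with edgeR, and 1.05 without control mouse 2). Atf4 itself was at 0.044 (standard error 0.13), with 103, 98.5 and 118 CPM in the mAktDKO mice against 124, 91.8 and 94.1 CPM. Control mouse 2 had the highest Atf4 level of the 6 mice, and the other control mice were below all mAktDKO mice. Fasn and Scd1, genes of fatty acid synthesis that adipocytes also express, were highest in mAktDKO mouse 2, at 518 and 1397 CPM, the mouse in which summed adipocyte markers were also highest (57.8 CPM). The part of adipocytes in these values was not tested.

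**Figure D4:**
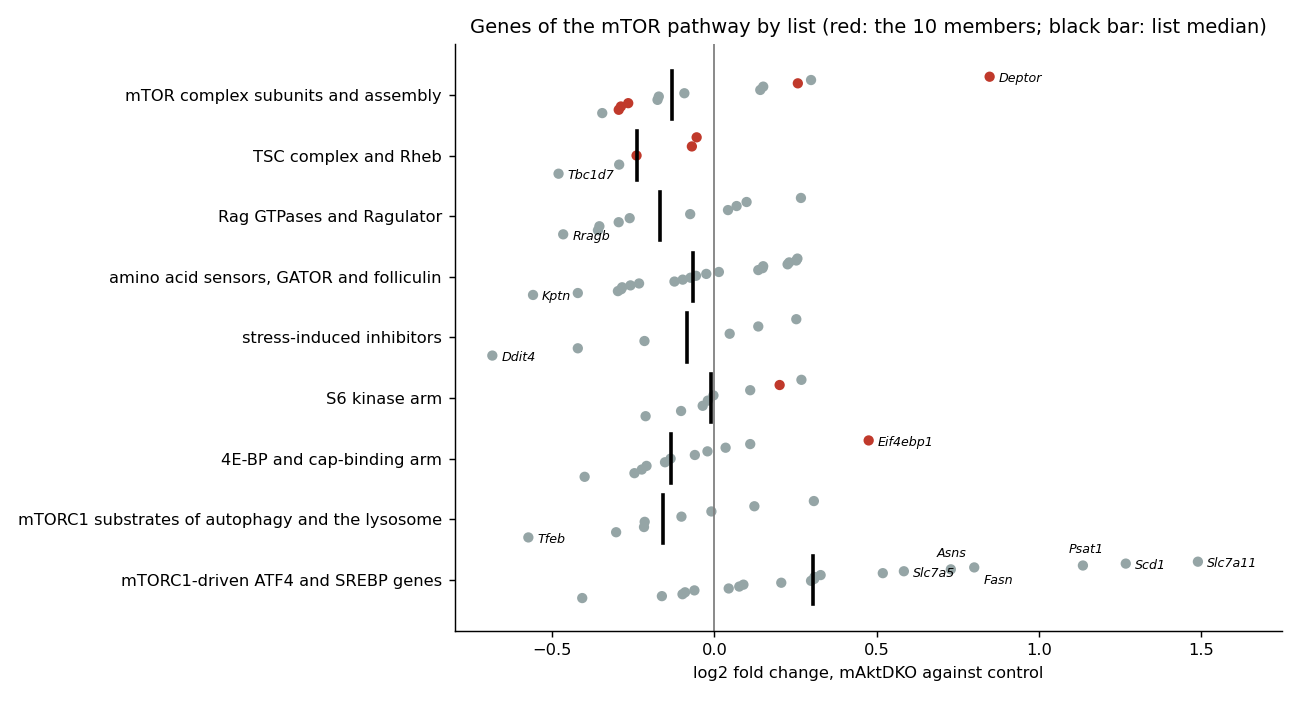
Log2 fold change (mAktDKO against control) of each gene in 9 lists of the mTOR pathway, with the 10 members in red, other genes in grey and a bar at the median of each list. The list medians lie between -0.24 and 0.30, and Deptor is apart from the other subunits and assembly factors.

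The genes whose pattern over the 6 mice was most like that of Deptor were sought by the root mean square distance between centred log2 CPM values. They were Gas2 (distance 0.070), Myc (0.071) and Pcdhgc5 (0.077). Myc, which encodes a transcription factor of growth and ribosome production, was at 9.19, 8.44 and 8.70 CPM in the mAktDKO mice and at 4.12, 5.32 and 4.99 CPM in the control mice. These genes were picked for their likeness to Deptor, so that their higher levels in the mAktDKO mice follow from the choice. Pcdhgc5 shares exons with its gene cluster, and its level, under 2 CPM, is therefore uncertain.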

How the data were processed

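The authors sequenced rRNA-depleted directional libraries of EDL with paired-end reads, mapped them to mm10 with STAR and estimated counts per gene using RSEM 1.3.1. They deposited these expected counts without scaling between mice. For mAktDKO mice the column numbers are those of the labels. For control mice the columns run from 2 to 4 and the labels from 1 to 3, and each such column was therefore taken as a mouse of the group with no label of its own.

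The rounded counts went into edgeR 4.0.16 under R 4.3.3. After filterByExpr at a minimum count of 10, 12892 genes remained, and these were scaled with TMM and given the quasi-likelihood test, with Benjamini-Hochberg adjustment and a call at an adjusted p under 0.01. Intervals are 95% and use the moderated degrees of freedom. The alternative test was DESeq2 1.42.0. Exon lengths were taken from GENCODE M21 for 23376 of the 24411 genes, and older symbols of 3 pathway genes from RefSeq. Scripts were tested on simulated data. The members, lists, ratios and motifs were chosen with earlier results of these data known. All members are named, with the targeted genes, in each list any gene past the threshold and at most the 3 other genes with the smallest p, and the 3 genes most like the member with the largest difference. Atf4, Fasn, Scd1, Rps6kb2, Eif4ebp2, Eif4ebp3 and the marker genes were named after their values were seen. Labels name separate mice by number alone. Counting intervals and floors cover counting error only.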

Additional observations from a re-analysis of the deposited data

How the results depend on the processing

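No paired analysis was possible because numbers in the control columns differ from those in the labels of the control mice, and the planned fit with the replicate number as a block was not run.

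The number of members past the threshold in the higher direction was 0, and it was 1 (Deptor) at an adjusted p under 0.05, with no filter on low counts (adjusted p = 0.00557) and with DESeq2 on the same genes and on all genes. In the lower direction it was 0 in all 15 alternatives. The number of all genes was 3, against 152 at an adjusted p under 0.05, 32 with no filter, 303 and 341 with DESeq2 on the same and on all genes, and 0 to 8 without one mouse (0 without any one mAktDKO mouse, 8 without control mouse 2). The number of other pathway genes was 1 higher (Psat1) at an adjusted p under 0.05 and with DESeq2 on the same genes, and 2 lower (Ddit4 and Tfeb) with both forms of DESeq2. Why edgeR and DESeq2 differ here was not tested. Of the 140 results of a member under an alternative, 134 kept their direction and side of the threshold and 3 were reversed. These were Tsc1 at 0.069 and Rheb at 0.086 with library totals, a scaling that moved the median of all genes from 0.017 to 0.16, and Tsc1 without control mouse 2 (-0.21 to 0.15 without one mouse). Rps6, no member, was also reversed with library totals (0.036). The median of the members was 0.078 with library totals and from -0.13 to 0.048 without one mouse. The log2 ratio of Akt1s1 to Mtor had no stable sign, from -0.0088 to 0.073 without one mouse, while the other 6 ratios kept theirs. With coding in place of exon lengths, the levels per length in control mice were 16.4 for Mtor, 26.2 for Rptor, 10.1 for Rictor, 43.5 for Tsc1, 34.6 for Tsc2, 129 for Rheb, 102 for Akt1s1, 139 for Deptor, 40.6 for Rps6kb1 and 73.0 for Eif4ebp1. The log2 fold change of Akt2 was between -1.59 and -1.52 in the fits without one mAktDKO mouse, in which its call was lost. With 3 mice in each group, an exact test cannot go below 0.1.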
